A study of Mus musculus with 30 samples.

Results

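The comparison set cultured spheres labelled MB against cultured spheres labelled FB, with 5 libraries each, so that it used 10 of the 30 mouse libraries of the series. All 26005 genes in the sphere count table were considered, and the 12886 that passed the filter on low counts were tested. The labels give every sphere library as adult and in vitro and do not spell out MB or FB, and they name no strain, genotype or agent. The series' design text says that neurospheres came from the adult lateral ventricle, in the forebrain, and ependymal spheres from the midbrain aqueduct. The other 20 libraries, of floor plate cells taken by laser capture, were deposited in a separate table and were not used here. Whether the 5 libraries of a group are separate animals, cultures or portions of 1 culture is not labelled, so p-values measure only the spread between these samples, which may be technical.

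Neurospheres are free-floating clusters that neural stem and progenitor cells form in medium with growth factors. Ependymal cells line the brain ventricles and the aqueduct and carry beating cilia. Cells of the neural tube take their position along the body from transcription factors: Six3 and Emx2 mark forebrain territory, while Otx2, the Pax3 and Irx factors and the engrailed genes mark midbrain and neighbouring regions.

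The libraries held 6327198 to 9291311 counts and 17198 to 18511 genes with at least 1 count. Levels are given as CPM, counts scaled to the library size after TMM scaling. They are not per length and are compared only between samples of the same gene. Over the tested genes, pairs of libraries correlated at 0.959 to 0.966 within a group and at 0.915 to 0.927 between groups (Pearson r of log2 CPM). The first principal component took 44.7% of the variance and separated all MB from all FB libraries. The second took 8.68% and set FB1 and FB2 apart from FB3, FB4 and FB5. Mitochondrially encoded genes took 3.85% to 4.74% of the counts in MB, 4.14% and 4.24% in FB2 and FB1, and 6.02%, 6.37% and 8.01% in FB3, FB4 and FB5.

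Position genes, glial genes and genes of growth separated the 2 kinds of sphere. The MB spheres held midbrain factors and more RNA of many astrocyte and interferon response genes. The FB spheres held forebrain factors and more RNA of many neuroblast, Notch, cell cycle and ribosomal protein genes. Genes of the oligodendrocyte lineage differed in both directions. By the edgeR quasi-likelihood test with Benjamini-Hochberg adjustment at 0.05, 3818 of 12886 genes (29.6%) were called, 1975 higher in MB (15.3%) and 1843 lower in MB (14.3%). A call together with a difference past 2-fold held for 1048 genes (8.13%), 685 higher (5.32%) and 363 lower (2.82%) in MB. The CPM of the 2 groups did not overlap for 2737 genes (21.2%), 1475 with MB higher (11.4%) and 1262 with MB lower (9.79%). The median log2 difference over all tested genes, MB minus FB, was -0.015. These shares are the background for every count of list members below.

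**Figure D1:**
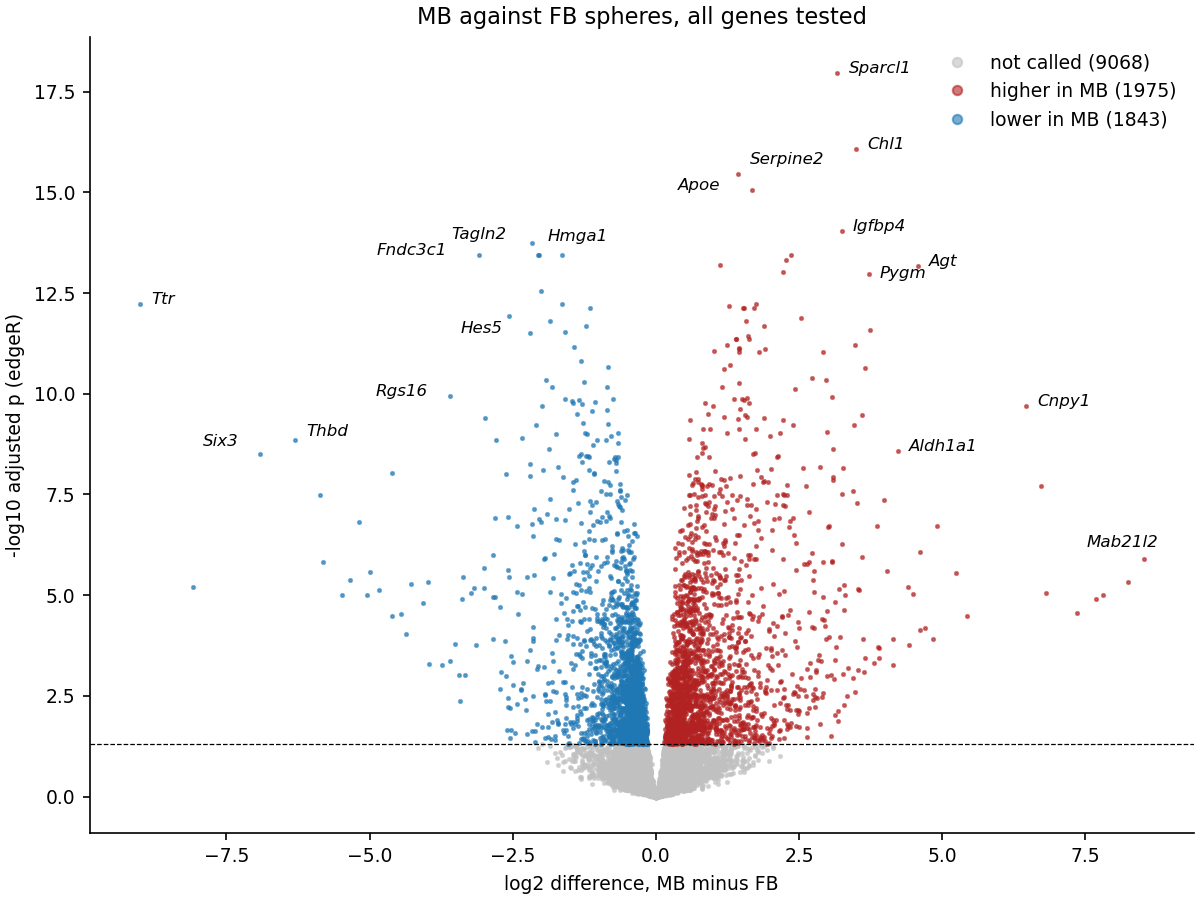
Each point is 1 of the 12886 genes tested: the x axis is the log2 difference of MB minus FB, the y axis is -log10 of the adjusted p from edgeR, and the dashed line marks an adjusted p of 0.05. The 1975 genes called higher and 1843 called lower in MB lie on both sides, with Sparcl1 at the top and Ttr at the far left.

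The smallest p belonged to Sparcl1, a secreted matrix-associated glycoprotein of astrocytes, at 1763, 1738, 1620, 1637 and 1656 CPM in MB1 to MB5 and 203, 182, 188, 196 and 171 CPM in FB1 to FB5. Sparcl1 differed by 3.16 on the log2 scale (SE 0.06, adjusted p = 1.09e-18). Every MB library was above every FB library, at an 8.96-fold higher mean. Chl1, a cell adhesion molecule of the L1 family, gave 249, 256, 280.1, 273 and 282 CPM in MB1 to MB5 and 25.1, 25.3, 23.3, 23.3 and 21.6 CPM in FB1 to FB5 (log2 difference 3.50, SE 0.08, adjusted p = 8.32e-17), again without overlap. Serpine2, a secreted protease inhibitor, was at 6381 ± 151 CPM in MB and 2352 ± 88.6 CPM in FB (mean ± SD, n = 5 each, log2 difference 1.44, SE 0.04, adjusted p = 3.49e-16). Selenop, the selenium carrier protein, was at 328 ± 19.5 and 68 ± 7.57 CPM (log2 difference 2.27, SE 0.08, adjusted p = 4.66e-14). In the other direction the genes with the smallest p were Tagln2, an actin-binding protein (68.5 ± 5.5 CPM in MB and 308 ± 8.04 CPM in FB, log2 difference -2.17, SE 0.07, adjusted p = 1.79e-14), Hmga1, an architectural chromatin protein (73.8 ± 4.95 and 302 ± 13.7 CPM, log2 difference -2.03, SE 0.07, adjusted p = 3.55e-14), and Cybrd1, a ferric reductase (66.5 ± 4.93 and 276 ± 6.62 CPM, log2 difference -2.05, SE 0.07, adjusted p = 3.55e-14). Prss23, a serine protease, was at 66.3 ± 8.06 CPM in MB and 268 ± 3.1 CPM in FB (log2 difference -2.01, SE 0.08, adjusted p = 2.84e-13).

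Of 41 forebrain patterning factors with a row, 21 were tested, and 9 of them were lower and 4 higher in MB, with a median log2 difference of -0.71. Six3, a homeodomain factor of the anterior forebrain, gave 0.288, 0.279, 0, 0 and 0 CPM in MB1 to MB5 and 14.4, 13.6, 13.7, 15.7 and 17.9 CPM in FB1 to FB5. Six3 differed by -6.91 on the log2 scale (SE 0.51, adjusted p = 3.18e-09). Emx2, a homeodomain factor of the dorsal telencephalon, gave 0, 0, 0.117, 0.788 and 0 CPM in MB1 to MB5 and 8.88, 4.74, 15.5, 11.4 and 10.7 CPM in FB1 to FB5. Emx2 differed by -5.81 on the log2 scale (SE 0.67, adjusted p = 1.53e-06). For both factors each FB library lay above each MB library, and several MB libraries held no count. Dlx2, a homeodomain factor of interneuron progenitors, had no count in any MB library, while FB1 to FB5 held 5.87, 2.63, 5.78, 2.88 and 4.8 CPM. Against a floor of 3 counts over the MB group, Dlx2 was at least 53.6-fold higher in FB. Gsx2, its upstream partner in the ventral forebrain, was too low to be tested, with 94 counts over the FB libraries and 2 over the MB libraries (FB to MB ratio of the pooled levels 43.2, 95% counting interval 11.6 to 362). Gsx2 was picked after its values were seen, and other forebrain factors too low to be tested are not described.

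Lhx2, a LIM homeodomain factor of the cortex and eye field, was at 0.373 ± 0.272 CPM in MB and 6.34 ± 2.61 CPM in FB (log2 difference -4.07, SE 0.57, adjusted p = 1.57e-05). Meis2, a cofactor in the lateral ganglionic eminence and its olfactory neurons, gave 23.4, 15.5, 13.7, 20.7 and 12 CPM in MB1 to MB5 and 71.2, 98.3, 90.5, 79.96 and 86.6 CPM in FB1 to FB5 (log2 difference -2.33, SE 0.16, adjusted p = 1.29e-09), and Meis1 fell by 0.57 on the log2 scale (adjusted p = 0.000188). Nr2e1, the orphan receptor Tlx of forebrain stem cells, gave 12.9, 10.6, 10.2, 8.99 and 16 CPM in MB1 to MB5 and 19.1, 33.4, 35, 30.5 and 22.9 CPM in FB1 to FB5. Nr2e1 differed by -1.26 on the log2 scale (SE 0.21, adjusted p = 0.000132). None of Meis2, Meis1 and Nr2e1 had an MB library at or above its lowest FB library. Pax6 was at 13.2 ± 1.08 CPM in MB and 21.6 ± 8.38 CPM in FB (log2 difference -0.71, SE 0.23, adjusted p = 0.0234), with overlapping groups. Its call was lost without FB3 (adjusted p = 0.114) and without FB5. The 4 forebrain list members higher in MB (2 without FB3, FB4 and FB5) were Otx1 (14.2 to 26.2 CPM in MB and 8.18 to 14.5 CPM in FB, log2 difference 0.92, SE 0.22, adjusted p = 0.00339), Ebf1 (2.35 to 5.05 CPM in MB and 0 to 1.2 CPM in FB, log2 difference 3.35, SE 0.66, adjusted p = 0.000626), Nr2f2 (5.47 to 8.52 CPM in MB and 1.35 to 3.07 CPM in FB, log2 difference 1.65, SE 0.36, adjusted p = 0.00159) and Zfhx4 (1.74 to 4.22 CPM in MB and 0 to 1.05 CPM in FB, log2 difference 2.91, SE 0.68, adjusted p = 0.00266). Otx1 and Nr2f2 are known outside the forebrain as well, and midbrain list members below, such as Foxb1 and Otx2, outside the midbrain. The 8 members not called were Bcl11a, Bcl11b, Zic1, Zic5, Zfhx3, Gsx1, Pbx3 and Nr2f1, with log2 differences from -1.44 (Bcl11b) to 1.596 (Zic5).

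The midbrain and floor plate list ran the other way: 12 of its 17 tested members were higher in MB and 1 was lower, with a median log2 difference of 2.36. The other members of its 52 genes with a row were too low to be tested. Otx2, the factor that sets the midbrain territory ahead of the hindbrain boundary, gave 16.4, 16.3, 15.8, 15.8 and 17.9 CPM in MB1 to MB5 and 3.01, 2.1, 4.69, 0.84 and 1.48 CPM in FB1 to FB5. Otx2 differed by 2.75 on the log2 scale (SE 0.34, adjusted p = 4.31e-06). All MB libraries lay far above the FB range. Pax3, a paired-box factor of the dorsal midbrain and neural crest, gave 4.89, 6.82, 4.34, 3.94 and 6.52 CPM in MB1 to MB5 and 0, 0, 0.218, 0.24 and 0.123 CPM in FB1 to FB5. Pax3 differed by 5.25 on the log2 scale (SE 0.64, adjusted p = 2.82e-06). Mab21l2, a dorsal midbrain and eye gene, held 6.76, 6.55, 7.97, 4.26 and 4.3 CPM in MB1 to MB5 and no count in any FB library, which makes it at least 80.5-fold higher in MB against the floor of 3 counts. Its paralogue Mab21l1 was at 7.26 ± 1.7 CPM in MB and 0.819 ± 0.581 CPM in FB (log2 difference 3.15, SE 0.55, adjusted p = 0.000196).

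Foxb1, a forkhead factor of the diencephalon and midbrain, was at 4.43 ± 1.11 CPM in MB and 0.17 ± 0.264 CPM in FB (log2 difference 4.70, SE 0.74, adjusted p = 6.44e-05). The Iroquois homeodomain factors moved alike: Irx2 was at 3.91 ± 1.85 and 0.311 ± 0.568 CPM (log2 difference 3.49, SE 0.81, adjusted p = 0.00253), Irx3 at 5.42 ± 1.81 and 0.216 ± 0.299 CPM (log2 difference 4.62, SE 0.74, adjusted p = 7.14e-05), and Irx5 at 4.73 ± 1.74 and 0.364 ± 0.315 CPM (log2 difference 3.61, SE 0.61, adjusted p = 0.000125). All of these had no overlap between groups. Nkx2-2, a ventral homeodomain factor that oligodendrocyte progenitors also use, was at 15.5 ± 3.48 and 7.88 ± 1.87 CPM (log2 difference 0.97, SE 0.24, adjusted p = 0.0038). Dbx2 was at 335 ± 13.6 and 239.7 ± 15.5 CPM (log2 difference 0.48, SE 0.06, adjusted p = 3.35e-06). Among secreted products, the floor plate adhesion protein Spon1 (F-spondin) gave 446, 430.3, 467, 487 and 546 CPM in MB1 to MB5 and 86.1, 102, 80.5, 99.2 and 96.2 CPM in FB1 to FB5 (log2 difference 2.36, SE 0.08, adjusted p = 3.55e-14), and the guidance cue Ntn1 gave 53.8, 56.5, 53.9, 50.1 and 54.8 CPM in MB1 to MB5 and 40.5, 38.9, 36.5, 31 and 45.6 CPM in FB1 to FB5. Ntn1 differed by 0.48 on the log2 scale (SE 0.12, adjusted p = 0.00355). Helt, a factor of midbrain GABA neurons, was the single member called lower, at 0.424 ± 0.601 CPM in MB and 2.28 ± 1.22 CPM in FB (log2 difference -2.46, SE 0.81, adjusted p = 0.0267), and that call was lost without any 1 of 5 libraries (MB1, MB3, MB5, FB3 or FB5, adjusted p up to 0.0774). The members not called were Msx1 (1.13), Slit2 (0.68), Barhl2 (-0.12) and Meis3 (0.01 on the log2 scale).

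Cnpy1, a gene of the midbrain-hindbrain boundary, had the largest rise of the genes named by size. Its libraries held 52.9, 61.7, 65.3, 38.6 and 56.4 CPM in MB1 to MB5 and 1.5, 0, 0, 0.961 and 0.738 CPM in FB1 to FB5 (log2 difference 6.46, SE 0.40, adjusted p = 2.05e-10), with all MB libraries far above the FB range. The defining boundary and floor plate factors were close to 0. They were picked after their values were seen, because they define the territory. En1 held 1.44, 1.67, 1.17, 0.788 and 0.13 CPM in MB1 to MB5 and 0, 0.132, 0.109, 0.36 and 0 CPM in FB1 to FB5. En2 had 31 counts over the MB and 3 over the FB libraries (ratio 11.2, 95% counting interval 3.51 to 57.4). Shh had 21 and 2 counts (ratio 11.4, interval 2.79 to 100), and Foxa2 had 10 and 1 (ratio 10.9, interval 1.55 to 472). Foxa1 had 10 counts in MB and none in FB, at least 3.62-fold. Lmx1a, the gene that drives the recombinase used on the captured cells of the series, held 0, 0.139, 0, 0.158 and 0.782 CPM in MB1 to MB5 and 0, 0.132, 0.109, 1.56 and 0.738 CPM in FB1 to FB5, so both kinds of sphere were near the floor. None of the 25 Hox genes with a row, which mark hindbrain and spinal cord, passed the filter, and together they summed to 2.68 to 5.29 CPM in MB and 0.600 to 1.97 CPM in FB.

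**Figure D2:**
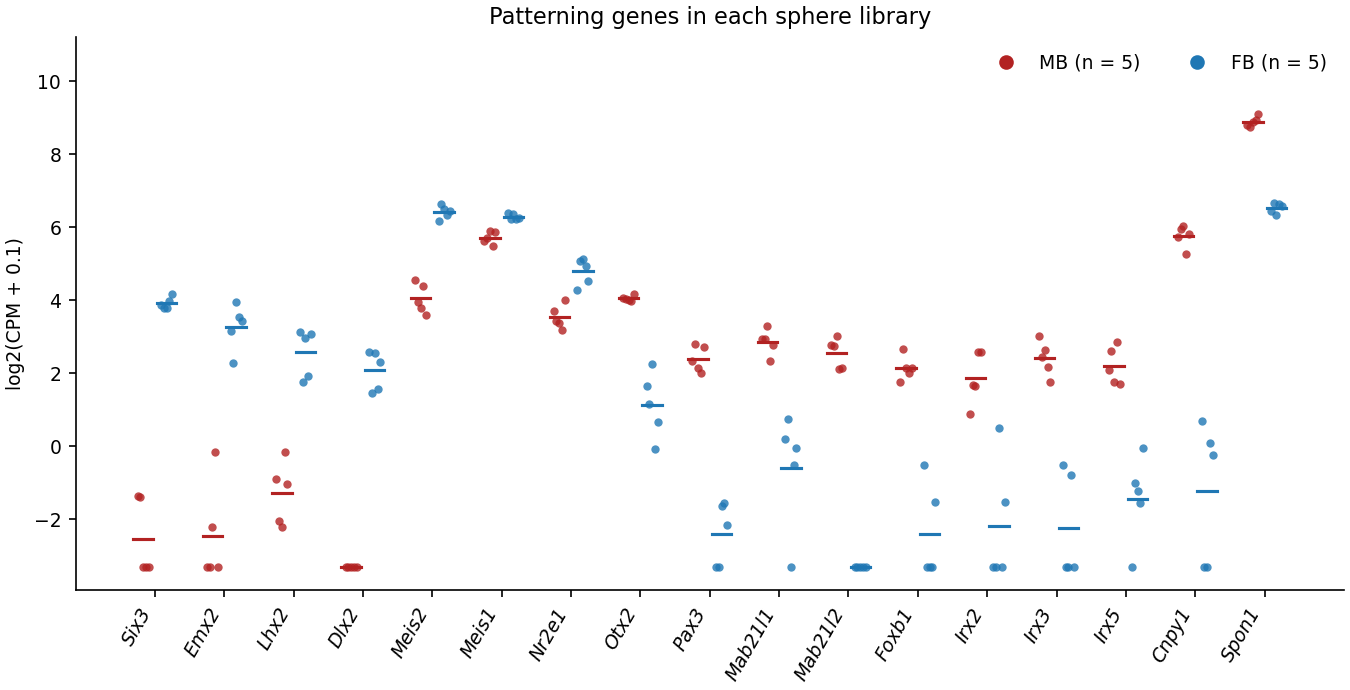
Each point is 1 library of MB (red) or FB (blue), the y axis is log2(CPM + 0.1), and the bars are group means of that scale. Six3 to Nr2e1 lie higher in FB and Otx2 to Spon1 higher in MB, and points at the bottom edge are libraries with no count, such as all MB libraries for Dlx2 and all FB libraries for Mab21l2. The genes drawn are a selection and do not show how the lists divided. Left out are, among others, the forebrain list members higher in MB (Otx1, Ebf1, Nr2f2 and Zfhx4), Pax6, and the midbrain list member lower in MB (Helt).

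Sox9 and the nuclear factor I genes, which the series title names and which act in the switch of neural progenitors to glia, did not move as a group: 2 of 5 were higher, 2 lower and 1 not called. Without FB3, FB4 and FB5 1 was lower. Sox9 gave 208, 185, 209.8, 166 and 200.5 CPM in MB1 to MB5 and 287, 314, 300.2, 274 and 296 CPM in FB1 to FB5 and was 1.52-fold lower in MB without overlap (log2 difference -0.60, SE 0.07, adjusted p = 1.52e-06). Nfib gave 224, 219.9, 209, 216 and 215 CPM in MB1 to MB5 and 255, 244, 281, 301 and 282 CPM in FB1 to FB5. Nfib differed by -0.33 on the log2 scale (SE 0.06, adjusted p = 0.000539). Nfic gave 22.9, 22.4, 18.4, 22.4 and 21.8 CPM in MB1 to MB5 and 9.78, 8.55, 12.7, 10.1 and 13.7 CPM in FB1 to FB5 and was 1.97-fold higher (log2 difference 0.97, SE 0.19, adjusted p = 0.00057). Nfix gave 119, 134, 140.2, 132 and 99.98 CPM in MB1 to MB5 and 89.2, 94.2, 100.4, 102 and 89.7 CPM in FB1 to FB5 (log2 difference 0.40, SE 0.09, adjusted p = 0.00234), with MB5 inside the FB range. Nfia gave 266, 250, 323, 281 and 359 CPM in MB1 to MB5 and 237, 290.2, 277, 281 and 334 CPM in FB1 to FB5 and was not called (log2 difference 0.06, SE 0.10, adjusted p = 0.686), and its groups overlapped widely.

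Of 40 tested radial glia and neural stem cell genes 18 were lower in MB and 10 higher, with a median log2 difference of -0.32. The higher members included Cspg5, Bcan, Lifr, Id2, Rgcc, Hopx, Cd9 and Rarres2, so the list went both ways. In bulk libraries a smaller number of cells of a type and less RNA per cell cannot be told apart, which holds for all groups of cell type genes here. Vim, the intermediate filament of radial glia, gave 717, 772, 673, 774 and 732 CPM in MB1 to MB5 and 1460, 1336, 1277, 1220 and 1253 CPM in FB1 to FB5. Vim differed by -0.84 on the log2 scale (SE 0.06, adjusted p = 5.50e-10). Nes, the filament protein nestin, gave 72.4, 85.1, 93.8, 77.3 and 93.3 CPM in MB1 to MB5 and 161, 193, 185, 217 and 192 CPM in FB1 to FB5. Nes differed by -1.17 on the log2 scale (SE 0.09, adjusted p = 7.76e-09). Fabp7, the brain fatty acid binding protein, gave 1801, 1989, 1701, 1822 and 1674 CPM in MB1 to MB5 and 3056, 3045, 3103, 3023 and 2950 CPM in FB1 to FB5. Fabp7 differed by -0.76 on the log2 scale (SE 0.04, adjusted p = 1.32e-10). No MB library reached the FB range for these 3 genes. Tnc, the stem cell niche matrix protein tenascin C, was at 277 ± 19.3 CPM in MB and 864 ± 37 CPM in FB (log2 difference -1.64, SE 0.06, adjusted p = 3.61e-14). Of the other progenitor markers, the glutamate transporter Slc1a3 was lower by a small margin (1392 to 1512 CPM in MB and 1527 to 1713 CPM in FB, log2 difference -0.15, SE 0.04, adjusted p = 0.0114), a call that was lost with no filter on low counts (adjusted p = 0.0751). Sox2 and the receptor Egfr were not called (adjusted p = 0.923 and 0.0873). Sox2 held 13.9 to 26.8 CPM in MB and 13.1 to 26.1 CPM in FB, and Egfr held 311 to 366 CPM in MB and 366 to 396 CPM in FB.

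Genes of ventricular zone neuroblasts were lower in 15 of 25 tested members and higher in 2, with a median log2 difference of -0.60. Cd24a, a surface protein of neuroblasts and of ependymal cells, gave 80.1, 86.8, 87.7, 83.7 and 82.5 CPM in MB1 to MB5 and 183, 154, 172, 172 and 179 CPM in FB1 to FB5. Cd24a differed by -1.03 on the log2 scale (SE 0.07, adjusted p = 1.44e-09). Sox11, a factor of newborn neurons, was at 117 ± 12.2 CPM in MB and 227 ± 18.6 CPM in FB (log2 difference -0.95, SE 0.08, adjusted p = 2.53e-08). Btg2, an antiproliferative gene of neurogenic divisions, was at 101 ± 11.9 and 256 ± 14.2 CPM (log2 difference -1.34, SE 0.08, adjusted p = 1.41e-10). The neuronal markers themselves were low: Dcx held 1.64 to 6.94 CPM in MB and 0 to 2.51 CPM in FB and Tubb3 held 1.58 to 4.22 CPM in MB and 3.29 to 8.58 CPM in FB, and neither was called (adjusted p = 0.055 and 0.0537). Dcx leaned higher in MB (log2 difference 1.90, SE 0.72) and Tubb3 lower (log2 difference -1.05, SE 0.40). A call was gained by Dcx in 7 of the 18 alternative settings that tested it, and by Tubb3 in 5 of 19. Differentiated neuron genes went both ways, with 6 of 22 tested members higher (3 without FB3, FB4 and FB5) and 8 lower. Thy1, a surface glycoprotein, was at 75.6 ± 10.6 CPM in MB and 9.57 ± 2.15 CPM in FB (log2 difference 2.98, SE 0.17, adjusted p = 4.67e-11), whereas Nefl, a neurofilament chain, was at 2.27 ± 1.71 and 10.7 ± 2.07 CPM (log2 difference -2.24, SE 0.43, adjusted p = 0.000438).

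Notch pathway genes were lower in MB for 13 of 24 tested members and higher for 2, with a median log2 difference of -0.38. Among effectors, Hes5 gave 20.9, 20.6, 20.1, 19.6 and 24 CPM in MB1 to MB5 and 98.1, 93.5, 97, 90.8 and 104 CPM in FB1 to FB5. Hes5 differed by -2.20 on the log2 scale (SE 0.10, adjusted p = 3.07e-12). Hey1 gave 20.9, 31.3, 25, 22.2 and 26.5 CPM in MB1 to MB5 and 69.8, 62, 52.3, 51.3 and 65.8 CPM in FB1 to FB5. Hey1 differed by -1.26 on the log2 scale (SE 0.14, adjusted p = 8.07e-07). Both are transcriptional repressors that the cleaved receptor switches on, and neither had overlapping groups. The ligand Dll1 gave 57.2, 45.8, 52.9, 51.6 and 52.3 CPM in MB1 to MB5 and 148, 155, 149.5, 127 and 134 CPM in FB1 to FB5 (log2 difference -1.46, SE 0.09, adjusted p = 1.48e-10), and the receptor Notch1 gave 136, 113, 133, 141 and 110.4 CPM in MB1 to MB5 and 175, 173, 167, 166 and 175 CPM in FB1 to FB5. Notch1 differed by -0.43 on the log2 scale (SE 0.08, adjusted p = 0.000269). Without FB1 and FB2 8 members were lower, and without FB3, FB4 and FB5 7 were. The 2 higher calls were not stable, with 0 to 2 left when 1 library was left out. Id1, a target of BMP signalling that holds progenitors undifferentiated, was at 18.7 ± 2.16 CPM in MB and 36.4 ± 3.67 CPM in FB (log2 difference -0.96, SE 0.15, adjusted p = 4.78e-05).

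Astrocyte genes were higher in 20 of 40 tested members and lower in 11, with a median log2 difference of 0.32. Apoe, the lipid carrier that astrocytes secrete, gave 3627, 3780, 3442, 3682 and 3690 CPM in MB1 to MB5 and 1205, 1176, 1148, 1070 and 1056 CPM in FB1 to FB5. Apoe differed by 1.69 on the log2 scale (SE 0.04, adjusted p = 8.52e-16). Agt, angiotensinogen, gave 204, 209.7, 185, 192 and 248 CPM in MB1 to MB5 and 6.62, 6.18, 13.9, 7.2 and 8.85 CPM in FB1 to FB5 (log2 difference 4.58, SE 0.17, adjusted p = 6.86e-14) and was 23.8-fold higher in MB. S100b, a calcium-binding protein, gave 141, 144, 135, 132 and 138 CPM in MB1 to MB5 and 22.4, 17.6, 36.4, 22.4 and 27.9 CPM in FB1 to FB5. S100b differed by 2.44 on the log2 scale (SE 0.14, adjusted p = 7.70e-11). None of these 3 genes had overlapping groups. Clu, the secreted chaperone clusterin, was at 275 ± 11.7 CPM in MB and 74.2 ± 10.4 CPM in FB (log2 difference 1.89, SE 0.09, adjusted p = 2.06e-12), and the prohormone-processing enzyme Cpe at 1397 ± 179 and 471 ± 17.7 CPM (log2 difference 1.57, SE 0.07, adjusted p = 1.53e-12). The water channel Aqp4 was at 181 ± 28.1 and 65.8 ± 3.46 CPM (log2 difference 1.46, SE 0.10, adjusted p = 7.67e-10) and the glycolytic enzyme Aldoc at 1004 ± 33.7 and 762 ± 26.1 CPM (log2 difference 0.40, SE 0.04, adjusted p = 1.03e-06).

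Other astrocyte genes were lower. The intermediate filament Gfap gave 50.8, 45.1, 52.4, 51.1 and 63.5 CPM in MB1 to MB5 and 150, 127, 115, 135 and 140.2 CPM in FB1 to FB5. Gfap differed by -1.34 on the log2 scale (SE 0.10, adjusted p = 3.41e-09). The growth factor receptor Fgfr3 was at 108 ± 10.3 CPM in MB and 229.9 ± 16.2 CPM in FB (log2 difference -1.10, SE 0.08, adjusted p = 1.86e-09), and the folate enzyme Aldh1l1 at 646 ± 48 and 948 ± 51.8 CPM (log2 difference -0.55, SE 0.06, adjusted p = 2.61e-07). The gap junction protein Gja1 was not called (166 to 212 CPM in MB and 175 to 234 CPM in FB, log2 difference -0.11, SE 0.08, adjusted p = 0.341). The lower astrocyte genes Gfap, Fgfr3 and Aldh1l1 are also expressed by adult stem cells or radial glia. The radial glia and stem cell list itself went both ways, and the part of such cells in these differences was not tested.

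Oligodendrocyte lineage genes went both ways, with 13 of 34 tested members higher in MB and 9 lower, and a median log2 difference of 0.02. The 6 markers of the lineage summed to 2700 to 3380 CPM in MB and 3300 to 3690 CPM in FB, with 1 higher and 2 lower. All 9 lower members were among 13 tested genes of myelin and its formation, a set drawn up after the values were seen and so no support for a pattern. Mbp, myelin basic protein, gave 58.8, 27, 18.1, 29.6 and 48.9 CPM in MB1 to MB5 and 196, 257, 217, 223 and 217 CPM in FB1 to FB5. Mbp differed by -2.61 on the log2 scale (SE 0.21, adjusted p = 1.01e-08). The highest MB library stayed far below the lowest FB library, and MB3 was the lowest of all. Cnp, the myelin phosphodiesterase, gave 232, 254, 243, 278 and 241 CPM in MB1 to MB5 and 463, 476, 426, 422 and 415 CPM in FB1 to FB5. Cnp differed by -0.82 on the log2 scale (SE 0.06, adjusted p = 4.83e-09). The adhesion protein Mag was at 5.12 ± 2.83 CPM in MB and 18 ± 3.29 CPM in FB (log2 difference -1.82, SE 0.33, adjusted p = 0.000272), Mobp at 1.59 ± 0.84 and 5.82 ± 1.9 CPM (log2 difference -1.85, SE 0.46, adjusted p = 0.00422), and the tight junction protein Cldn11 at 1.58 ± 0.401 and 11.5 ± 2.05 CPM (log2 difference -2.85, SE 0.32, adjusted p = 9.76e-07).

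The higher members did not belong to 1 stage: 7 of the 13 were among the 11 tested progenitor genes, also grouped after the values were seen, and the other 6 were Ptgds, Bcas1, Aspa, Gjc3, Trf and Sirt2. Bcas1, which marks newly forming oligodendrocytes, gave 131, 134, 137, 151 and 125 CPM in MB1 to MB5 and 46.2, 55.2, 38, 43.1 and 48.2 CPM in FB1 to FB5. Bcas1 differed by 1.56 on the log2 scale (SE 0.10, adjusted p = 3.29e-10). Lhfpl3, a progenitor gene, gave 28.9, 35.4, 35.5, 39.4 and 35.7 CPM in MB1 to MB5 and 11.9, 8.55, 16.8, 19.9 and 15.7 CPM in FB1 to FB5. Lhfpl3 differed by 1.26 on the log2 scale (SE 0.20, adjusted p = 6.27e-05). The proteoglycan Cspg4 (NG2) was at 36.2 ± 7.56 CPM in MB and 24.1 ± 3.84 CPM in FB (log2 difference 0.58, SE 0.17, adjusted p = 0.0126), with overlapping groups. Aspa, the enzyme that splits N-acetylaspartate in mature oligodendrocytes, had the largest rise of the list and was 11.1-fold higher at 32.8 ± 1.75 and 2.93 ± 1 CPM (log2 difference 3.47, SE 0.23, adjusted p = 5.81e-10). Gjc3, a connexin of oligodendrocytes, was at 69 ± 7.42 CPM in MB and 21.3 ± 2.56 CPM in FB (log2 difference 1.69, SE 0.12, adjusted p = 3.16e-09). The lineage factor Olig2 was higher by a small margin (486 ± 84.4 and 392 ± 26.6 CPM, log2 difference 0.31, SE 0.09, adjusted p = 0.0111). Its partner Olig1 and the receptor Pdgfra were not called: Olig1 held 2166 to 2767 CPM in MB and 2539 to 2847 CPM in FB (adjusted p = 0.124) and Pdgfra held 24 to 52 CPM in MB and 33.6 to 46.5 CPM in FB (adjusted p = 0.528).

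**Figure D3:**
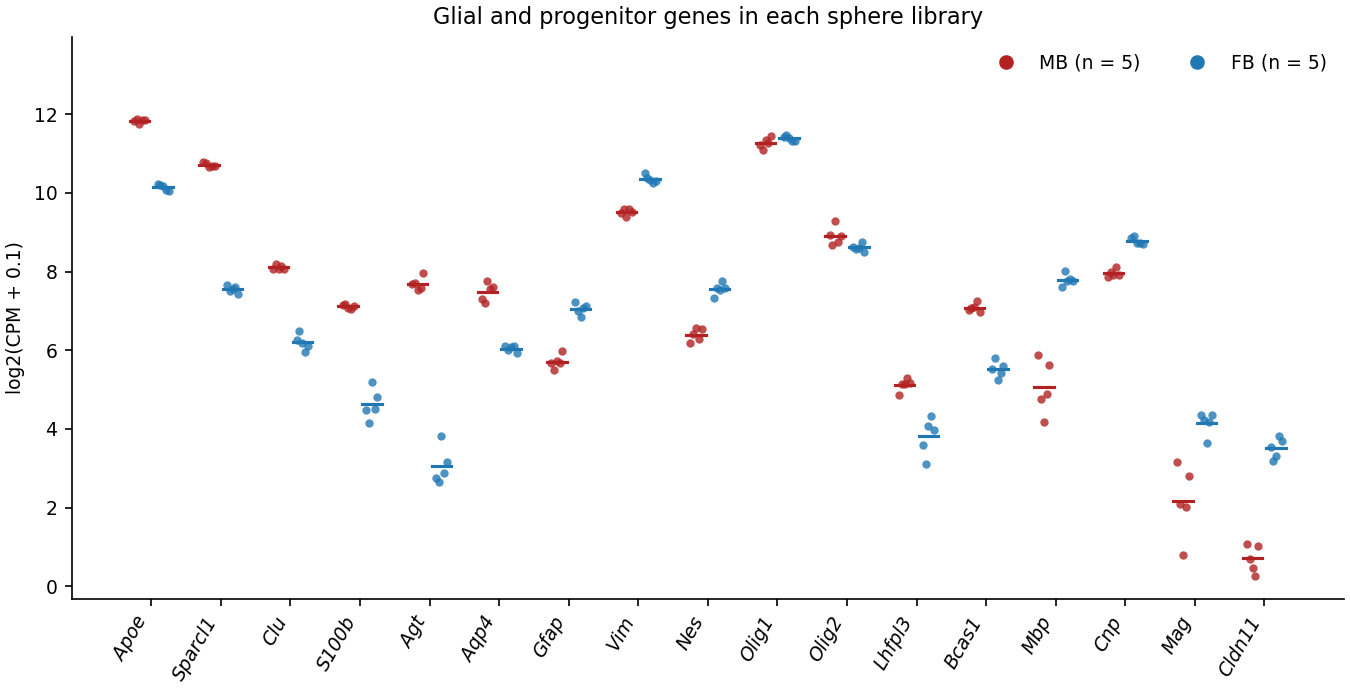
Each point is 1 library of MB (red) or FB (blue), the y axis is log2(CPM + 0.1), and bars are group means of that scale. Apoe to Aqp4 and Lhfpl3 and Bcas1 lie higher in MB, Gfap, Vim, Nes and the myelin genes Mbp to Cldn11 lie higher in FB, and Olig1 and Olig2 overlap.

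Of 86 motile cilia and ependymal genes with a row, 37 were tested, 8 were higher in MB and 1 was lower, with a median log2 difference of 0.29. Foxj1, the master factor of motile cilia, gave 22.1, 19.1, 27.8, 18 and 27 CPM in MB1 to MB5 and 10.4, 15, 14.7, 13.9 and 12.9 CPM in FB1 to FB5. Foxj1 differed by 0.77 on the log2 scale (SE 0.19, adjusted p = 0.00425). Odad2, a docking component of the outer dynein arms, gave 6.76, 14.6, 11, 7.73 and 8.99 CPM in MB1 to MB5 and 0.452, 2.76, 0, 0 and 0.123 CPM in FB1 to FB5. Odad2 differed by 3.89 on the log2 scale (SE 0.72, adjusted p = 0.000355). Both genes were higher in MB without overlap. The count of higher members was 5 without MB2 and 3 without FB3, FB4 and FB5. Apart from Foxj1 the markers of mature ependymal cells were low in both groups, and all but Rsph1 were too low to be tested: Rsph1 held 4.69 to 11.4 CPM in MB and 1.97 to 4.8 CPM in FB and was not called (adjusted p = 0.0554), and Dynlrb2 held 1.01 to 2.81 CPM in MB and 0.369 to 1.81 CPM in FB. Ccdc153 held 0.234 to 1.1 CPM in MB and 0.12 to 2.1 CPM in FB, Pifo 0.139 to 1.15 CPM in MB and 0 to 0.84 CPM in FB and Mia 1.26 to 2.22 CPM in MB and 0 to 0.789 CPM in FB. Tmem212 had 13 counts in MB, most of them in MB3, and 1 in FB (ratio 14.1, 95% counting interval 2.12 to 601). The 7 ependymal markers summed to 28.4 to 39.2 CPM in MB and 17.8 to 21.6 CPM in FB, and Foxj1 made up most of both. The part that such cells play in the differences was not tested.

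Markers of cells outside the neural lineage were mostly low, and some were higher in MB. The 5 microglia markers summed to 3.52 to 7.73 CPM in MB and 2.76 to 6.76 CPM in FB, with Csf1r at 0 to 1.58 CPM in MB and 0.218 to 1.81 CPM in FB and Aif1 at 0 to 0.279 CPM in MB and 0 to 0.615 CPM in FB. In the longer microglia and macrophage list, 3 of 9 tested members were higher and none lower (median log2 difference 0.56), among them Cd14 and Cd68, and the list summed to 194.8 to 276.5 CPM in MB and 120.7 to 201.2 CPM in FB. The part of such cells in the interferon response differences given further on was not tested. The 5 fibroblast markers summed to 1.10 to 6.76 and 6.45 to 13.2 CPM. Col1a1 was not called (0.117 to 1.87 CPM in MB and 0.436 to 7.01 CPM in FB, adjusted p = 0.133), and the small proteoglycan Dcn was lower in MB (0.569 ± 0.529 and 2.67 ± 0.785 CPM, log2 difference -2.16, SE 0.69, adjusted p = 0.023), a call lost without FB1 or without FB4. The 5 endothelial and mural markers summed to 23.7 to 35 CPM in MB and 15 to 20.9 CPM in FB. The smooth muscle actin Acta2 made up most of that sum and was higher in MB (27.2 ± 5.97 and 12.6 ± 3.23 CPM, log2 difference 1.11, SE 0.22, adjusted p = 0.000561), while the endothelial genes Pecam1 and Cldn5 held 0.575 to 1.26 CPM in MB and 0.752 to 3.32 CPM in FB and 0 to 0.782 CPM in MB and 0 to 2.21 CPM in FB, in that order. The Schwann cell and crest markers summed to 44.6 to 67.3 CPM in MB and 29.3 to 39.5 CPM in FB, most of it the myelin protein Pmp22, which was higher in MB (54.4 ± 7.92 and 31.5 ± 4.55 CPM, log2 difference 0.79, SE 0.13, adjusted p = 0.000148). The part of these cell types in the other differences was not tested. Ttr, the thyroid hormone carrier of the choroid plexus, stood apart from these: it held 0.144, 0.139, 0, 0 and 0 CPM in MB1 to MB5 and 40.3, 35.5, 31.6, 37.6 and 38 CPM in FB1 to FB5, which is 1450 counts over the FB and 2 over the MB libraries (FB to MB ratio 667, 95% counting interval 184 to 5510). Of the 9 tested members of the choroid plexus list 4 were higher in MB and 2 lower. The 4 higher members, all past 2-fold, were Sostdc1, Car12, Calml4 and Otx2, which is also on the midbrain list above. The lower members were Ttr and Enpp2, a secreted phospholipase, the latter by a small margin with overlapping groups (63.5 ± 6.26 and 79.8 ± 6.62 CPM, log2 difference -0.33, SE 0.10, adjusted p = 0.0137). The other 2 choroid plexus markers were low, with Folr1 at 1.76 to 3.15 CPM in MB and 0.327 to 1.8 CPM in FB (adjusted p = 0.0779) and Kl at 0.13 to 0.704 CPM in MB and 0 to 0.615 CPM in FB. The part of choroid plexus cells in the Ttr difference was not tested.

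Cell cycle genes were lower in MB for 37 of 55 tested members and higher for none, with a median log2 difference of -0.33, so that the shift was broad but small and no member passed 2-fold. The count stayed at 32 or more with any single library left out, and was 28 both without FB1 and FB2 and without FB3, FB4 and FB5. Ccna2, a cyclin of replication and early mitosis, gave 149.9, 145, 168, 154 and 143 CPM in MB1 to MB5 and 265, 238, 256, 242 and 219 CPM in FB1 to FB5. Ccna2 differed by -0.68 on the log2 scale (SE 0.07, adjusted p = 2.82e-07). Ccnb1, the mitotic cyclin, was at 276 ± 11.3 CPM in MB and 388 ± 15.1 CPM in FB (log2 difference -0.49, SE 0.05, adjusted p = 7.61e-07), and its kinase Cdk1 at 144 ± 10.9 and 199.7 ± 9.32 CPM (log2 difference -0.47, SE 0.07, adjusted p = 3.33e-05). The replication helicase subunit Mcm2 was at 185 ± 8.51 and 250 ± 17.2 CPM (log2 difference -0.43, SE 0.06, adjusted p = 3.04e-05), and the nucleotide reductase subunit Rrm2 at 394 ± 26.1 and 514 ± 8.29 CPM (log2 difference -0.38, SE 0.05, adjusted p = 1.63e-05). Top2a, the mitotic topoisomerase, was not called (314 to 376 CPM in MB and 338 to 403 CPM in FB, log2 difference -0.10, SE 0.07, adjusted p = 0.263). Mycn, a growth-promoting factor of neural progenitors, gave 1.58, 2.23, 0.586, 1.26 and 2.22 CPM in MB1 to MB5 and 9.33, 12.1, 26.7, 16.3 and 7.13 CPM in FB1 to FB5. Mycn differed by -3.18 on the log2 scale (SE 0.41, adjusted p = 6.76e-06).

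Inhibitors of cyclin-dependent kinases and p53 response genes, taken as 1 list, were more often lower as well. Of 29 tested members 13 were lower and 3 higher (median log2 difference -0.25). The 3 higher members were Gadd45a, Perp and Sesn1. A 2-fold difference was passed by 2 of the higher members and by 1 of the lower. Cdkn1a, the kinase inhibitor p21, gave 439, 405, 456, 418 and 472 CPM in MB1 to MB5 and 757, 813, 784, 767 and 832 CPM in FB1 to FB5. Cdkn1a differed by -0.85 on the log2 scale (SE 0.05, adjusted p = 2.58e-10). Cdkn2b was at 69 ± 9.43 CPM in MB and 118 ± 11.7 CPM in FB (log2 difference -0.77, SE 0.10, adjusted p = 8.46e-06), and the stress gene Gadd45g at 82.7 ± 7.53 and 203 ± 12.8 CPM (log2 difference -1.30, SE 0.08, adjusted p = 1.79e-10). The p53 targets Ccng1 and Mdm2 fell by 0.51 and 0.59 on the log2 scale (adjusted p = 2.40e-07 and 4.31e-05). Among called members, those of the cell cycle list were thus all lower in MB, and most of those of this mixed list were lower too.

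Immediate early and heat shock genes, which respond within minutes to growth factors or handling, were lower for 17 of 35 tested members and higher for 2, with a median log2 difference of -0.34. Jun gave 136, 139, 161, 131 and 153 CPM in MB1 to MB5 and 323, 330.3, 291, 293 and 323 CPM in FB1 to FB5. Jun differed by -1.12 on the log2 scale (SE 0.07, adjusted p = 2.68e-10). Fos gave 479, 469, 404, 466 and 472 CPM in MB1 to MB5 and 686, 730.5, 647, 689 and 707 CPM in FB1 to FB5. Fos differed by -0.59 on the log2 scale (SE 0.06, adjusted p = 7.68e-08). The phosphatase Dusp1 was at 73 ± 7.62 CPM in MB and 155 ± 11.1 CPM in FB (log2 difference -1.08, SE 0.09, adjusted p = 9.01e-09), and the chaperone Hsp90aa1 at 893 ± 25.4 and 1265 ± 52.4 CPM (log2 difference -0.50, SE 0.04, adjusted p = 3.20e-08). Egr1 was not called (774 to 997 CPM in MB and 929 to 1026 CPM in FB, log2 difference -0.15, SE 0.06, adjusted p = 0.0797).

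Cytosolic ribosomal protein genes were lower in MB for 72 of 81 tested members and higher for 1, with a median log2 difference of -0.32, and their summed level was 24230 to 27470 CPM in MB and 30090 to 32790 CPM in FB. Rpl32 gave 341, 392, 369, 358 and 338 CPM in MB1 to MB5 and 454, 500.4, 516, 475 and 466 CPM in FB1 to FB5. Rpl32 differed by -0.42 on the log2 scale (SE 0.06, adjusted p = 1.04e-05). Every MB library was below every FB library. Under the other scalings tried 71 members were lower, and without FB3, FB4 and FB5 48 were. Ribosomal protein genes, like Fth1 and Hmga1, have near-identical copies among which counting could have split reads, so their levels are uncertain.

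Nuclear genes for respiratory chain subunits went the other way, with 34 of 89 tested members higher and 1 lower (median log2 difference 0.17). The count of higher members was 25 to 41 with 1 library left out and 35 to 44 under the other scalings. It was 26 without FB1 and FB2 and 24 without FB3, FB4 and FB5. Atp5b, a catalytic subunit of ATP synthase, was at 3362 ± 108 CPM in MB and 2677 ± 113 CPM in FB (log2 difference 0.33, SE 0.04, adjusted p = 2.18e-06), and the complex I subunit Ndufv1 at 297 ± 8.8 and 219 ± 18.2 CPM (log2 difference 0.44, SE 0.06, adjusted p = 2.14e-05). Cox8b, a cytochrome oxidase subunit isoform, was at 19.8 ± 2.51 and 3.08 ± 0.94 CPM (log2 difference 2.67, SE 0.25, adjusted p = 8.55e-08). Of the 13 mitochondrially encoded genes 7 were lower and none higher in MB, with a median log2 difference of -0.40. That result rested on FB3, FB4 and FB5: without these 3 libraries none of the 13 was lower and 1 was higher, and without FB1 and FB2 all 13 were lower. For mt-Atp6, an ATP synthase subunit, the libraries held 3308, 2605, 5642, 3693 and 3412 CPM in MB1 to MB5 and 4454, 3905, 9083, 8505 and 11330 CPM in FB1 to FB5. mt-Atp6 differed by -0.998 on the log2 scale (SE 0.23, adjusted p = 0.00241). FB1 and FB2 lay within the MB range, and the other FB libraries lay above it. With DESeq2 4 of the 13 were lower.

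**Figure D4:**
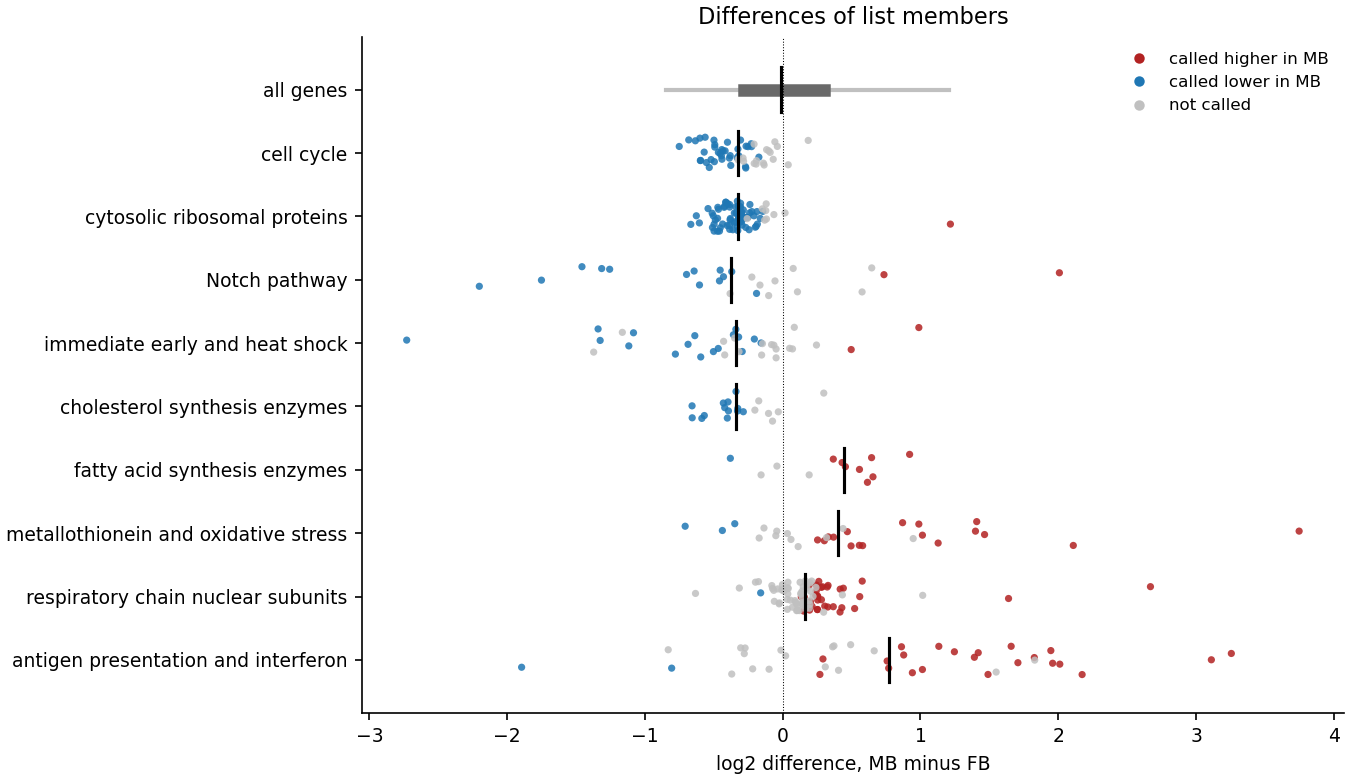
Each point is a tested member of the list named on the y axis, the x axis is the log2 difference of MB minus FB, black bars are medians, and the grey bars for all genes span the 5th to 95th and 25th to 75th percentiles. Cell cycle, ribosomal protein, Notch, immediate early and cholesterol enzyme members lie mostly below 0, and fatty acid enzyme, metallothionein and oxidative stress, respiratory chain and interferon members mostly above it. The cholesterol and fatty acid enzyme sets were divided after the values were seen.

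Genes of lipid synthesis differed in both directions. Of 41 tested members 12 were higher and 16 lower in MB. This list was divided after the values were seen into 19 cholesterol synthesis enzymes, of which 13 were lower and none higher (median log2 difference -0.34), and 12 fatty acid enzymes, of which 8 were higher and 1 lower (median 0.44). That division was made with the values in view and so is no support for a pattern. Fdps, which makes farnesyl pyrophosphate, gave 454, 461, 424, 452 and 429 CPM in MB1 to MB5 and 737, 710.1, 697, 699 and 659.6 CPM in FB1 to FB5. Fdps differed by -0.66 on the log2 scale (SE 0.05, adjusted p = 3.61e-09). Idi1 was at 381 ± 34.8 CPM in MB and 565 ± 27 CPM in FB (log2 difference -0.57, SE 0.06, adjusted p = 7.34e-07), and Dhcr7, which makes the last step to cholesterol, at 253 ± 21.1 and 380.3 ± 18.8 CPM (log2 difference -0.59, SE 0.06, adjusted p = 6.73e-07). Hmgcs1 and Sqle fell by 0.33 and 0.42 on the log2 scale (adjusted p = 8.77e-06 and 3.44e-06).

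The cholesterol export pumps Abca1 and Abcg1, known targets of the liver X receptors, were higher. Abca1 gave 100.3, 107, 103, 109.9 and 80.4 CPM in MB1 to MB5 and 8.28, 6.31, 8.94, 13.8 and 7.5 CPM in FB1 to FB5 (log2 difference 3.47, SE 0.17, adjusted p = 6.26e-12), and Abcg1 gave 42.3, 54.2, 50.1, 42.6 and 49.7 CPM in MB1 to MB5 and 4.06, 3.55, 5.78, 4.32 and 1.72 CPM in FB1 to FB5. Abcg1 differed by 3.61 on the log2 scale (SE 0.23, adjusted p = 3.31e-10). Every MB library lay well above the highest FB library for both. Lpcat3, a phospholipid-remodelling enzyme also known as a target of these receptors, was at 171 ± 8.44 CPM in MB and 103 ± 15.1 CPM in FB (log2 difference 0.73, SE 0.09, adjusted p = 2.60e-06). Fasn, the fatty acid synthase, was at 354 ± 56.5 and 232 ± 16.1 CPM (log2 difference 0.61, SE 0.09, adjusted p = 2.30e-05), and the desaturases Scd2 and Fads2 were 1.35-fold and 1.47-fold higher (adjusted p = 3.06e-05 and 1.79e-07).

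Metal-binding and antioxidant genes were higher for 17 of 30 tested members and lower for 3, with a median log2 difference of 0.40. Sod3, the extracellular superoxide dismutase, gave 108, 114, 110.4, 117 and 122 CPM in MB1 to MB5 and 8.13, 13.4, 7.96, 4.8 and 8.36 CPM in FB1 to FB5. Sod3 differed by 3.75 on the log2 scale (SE 0.17, adjusted p = 2.60e-12). The metallothionein Mt1 gave 361, 388, 412, 362 and 360.4 CPM in MB1 to MB5 and 138, 147, 127, 148 and 154 CPM in FB1 to FB5 (log2 difference 1.40, SE 0.07, adjusted p = 4.29e-12), and Mt2 was at 65.9 ± 7.05 CPM in MB and 23.8 ± 3.4 CPM in FB (log2 difference 1.47, SE 0.13, adjusted p = 3.40e-08). Among iron genes the storage chain Fth1 was at 2502 ± 102 and 1144 ± 24.5 CPM (log2 difference 1.13, SE 0.04, adjusted p = 6.31e-14), the ferroxidase Cp (ceruloplasmin) at 79.2 ± 5.99 and 18.4 ± 4.79 CPM (log2 difference 2.11, SE 0.16, adjusted p = 3.63e-09), and the haem oxygenase Hmox1 at 145 ± 10.5 and 73 ± 6.08 CPM (log2 difference 0.99, SE 0.08, adjusted p = 1.80e-08). The iron uptake receptor Tfrc moved the other way, at 153 ± 20.4 and 207 ± 21.4 CPM (log2 difference -0.44, SE 0.09, adjusted p = 0.000919). Gstm1, a glutathione transferase, was at 1091 ± 52.4 and 540.2 ± 27.3 CPM (log2 difference 1.01, SE 0.05, adjusted p = 8.55e-12).

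Antigen presentation and interferon response genes were higher in MB for 22 of 41 tested members and lower for 2, with a median log2 difference of 0.77. Psmb8, an inducible subunit of the immunoproteasome, gave 14.8, 17, 10.4, 9.15 and 13.7 CPM in MB1 to MB5 and 1.66, 1.45, 0.654, 1.08 and 1.97 CPM in FB1 to FB5. Psmb8 differed by 3.26 on the log2 scale (SE 0.35, adjusted p = 5.34e-07). Tap2, a subunit of the peptide transporter, gave 39, 45.1, 41.1, 48.2 and 45.9 CPM in MB1 to MB5 and 12.8, 10.7, 9.16, 9.72 and 14.1 CPM in FB1 to FB5. Tap2 differed by 1.96 on the log2 scale (SE 0.16, adjusted p = 1.51e-08). Ifitm2, an antiviral membrane protein, gave 194, 201, 210, 176 and 177 CPM in MB1 to MB5 and 76, 75.5, 82.8, 74 and 95.4 CPM in FB1 to FB5. Ifitm2 differed by 1.25 on the log2 scale (SE 0.09, adjusted p = 9.53e-10). The groups of these 3 genes did not overlap. The proteasome subunit Psmb10 and the loading chaperone Tapbp were 1.82-fold and 1.84-fold higher (adjusted p = 4.59e-05 and 8.16e-06), and the GTPase Irgm1 was at 49.96 ± 7.36 CPM in MB and 22.6 ± 7.42 CPM in FB (log2 difference 1.13, SE 0.19, adjusted p = 0.000104). The guanylate-binding protein Gbp3 was lower, at 25.2, 21.9, 25.9, 16.7 and 13.9 CPM in MB1 to MB5 and 89.2, 90.5, 60.3, 89.2 and 57.3 CPM in FB1 to FB5. Gbp3 differed by -1.90 on the log2 scale (SE 0.18, adjusted p = 9.86e-08). The class I heavy chain H2-K1 was not called (181 to 234 CPM in MB and 200.1 to 259 CPM in FB, log2 difference -0.10, SE 0.08, adjusted p = 0.392).

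Interferon response genes are known to carry a promoter element bound by interferon-activated factors, here searched as GAAA, any 2 bases and GAAA again, on both strands of the 300-base windows that RefSeq annotation gives (250 bases before to 50 after each start, build GRCm38.p6). Windows were matched for 16 of the 22 higher members, and 9 of these 16 (56.2%) held the letters, as did 7 of 15 members not called (46.7%) and the promoter of Gbp3. Over all tested genes with a window the share was 349 of 9874 (3.53%), over those higher in MB 4.94% and over those lower 3.44%. The share was thus near that of all genes among genes lower in MB and somewhat above it among genes higher in MB. Within the list it was similar in members higher and members not called. The differences between these shares were not tested. The stretches of 160 bases before the start are shown for 6 members so that the place of the element can be read beside the differences. They run 5′ to 3′ along the transcript, with the matched letters (or TTTC, 2 bases and TTTC where the match is on the other strand) in capitals.
Ifit3, chr19:34583369-34583528, plus strand: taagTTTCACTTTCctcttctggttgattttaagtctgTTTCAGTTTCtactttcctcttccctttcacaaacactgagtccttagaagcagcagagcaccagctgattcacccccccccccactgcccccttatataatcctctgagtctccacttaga
Rsad2, chr12:26456453-26456612, minus strand: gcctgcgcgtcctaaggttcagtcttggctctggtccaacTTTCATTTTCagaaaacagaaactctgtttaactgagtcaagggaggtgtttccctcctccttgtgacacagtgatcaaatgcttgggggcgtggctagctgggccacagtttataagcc
B2m, chr2:122147527-122147686, plus strand: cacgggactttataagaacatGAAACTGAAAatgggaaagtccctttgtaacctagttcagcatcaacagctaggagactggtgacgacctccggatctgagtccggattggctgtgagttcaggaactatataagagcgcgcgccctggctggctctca
Ifitm2, chr7:140955962-140956121, minus strand: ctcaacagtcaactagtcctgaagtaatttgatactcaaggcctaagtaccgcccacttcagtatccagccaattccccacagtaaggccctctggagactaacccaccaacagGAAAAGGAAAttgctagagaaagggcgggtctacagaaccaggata
Irgm1, chr11:48871421-48871580, minus strand: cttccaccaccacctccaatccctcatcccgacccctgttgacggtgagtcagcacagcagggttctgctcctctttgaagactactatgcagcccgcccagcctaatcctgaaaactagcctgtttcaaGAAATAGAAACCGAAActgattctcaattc
Gbp3, chr3:142559884-142560043, plus strand: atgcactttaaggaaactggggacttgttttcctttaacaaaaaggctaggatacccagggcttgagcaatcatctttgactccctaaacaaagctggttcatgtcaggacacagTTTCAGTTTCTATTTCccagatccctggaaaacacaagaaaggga
Ifit3, Rsad2 and B2m were chosen after their values were seen. Ifit3, an interferon-induced RNA sensor partner with 2 matches, was at 5.53 ± 2.17 CPM in MB and 0.651 ± 0.761 CPM in FB (log2 difference 3.11, SE 0.66, adjusted p = 0.00117). The antiviral enzyme Rsad2 was at 6.01 ± 1.77 and 2.25 ± 0.886 CPM (log2 difference 1.42, SE 0.41, adjusted p = 0.013), and B2m, the class I light chain, at 168 ± 7.12 and 137 ± 16 CPM (log2 difference 0.29, SE 0.08, adjusted p = 0.00874). Irgm1 and Gbp3 each held 2 overlapping matches, which began 30 and 45 bases before the start, and they differed in opposite directions. A match is a description of the letters and not of binding. Other searches over all called genes gave these shares: the E-box letters CAGCTG were in 20.4% of promoters of genes higher in MB, 16.4% of those lower and 17.6% of all, the SOX letters AACAATG in 2.70%, 2.46% and 2.44%, and the homeodomain letters TAATTA in 3.10%, 2.81% and 3.26%. The X-box of cilia gene promoters was in 1.12%, 2.04% and 2.07%, and the palindrome of NFI factors was in 3 of the 9874 promoters in all, 1 of them of a gene higher in MB and 0 of a gene lower.

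Receptors and channels for transmitters differed by subunit. Of 9 tested GABA and glycine receptor genes 6 were higher and 1 lower in MB (median log2 difference 1.14), and of 17 ionotropic and metabotropic glutamate receptor genes 6 were higher and 2 lower. The AMPA receptor subunit Gria4 gave 30.5, 36.6, 37.5, 52.8 and 43.3 CPM in MB1 to MB5 and 1.96, 3.95, 6.65, 1.08 and 3.69 CPM in FB1 to FB5 (log2 difference 3.51, SE 0.32, adjusted p = 5.13e-08), while its relative Gria2, which makes the channel calcium-tight, gave 30.5, 32.9, 28.8, 29.3 and 36.2 CPM in MB1 to MB5 and 94.2, 66.7, 97.3, 92.7 and 79.6 CPM in FB1 to FB5. Gria2 differed by -1.45 on the log2 scale (SE 0.12, adjusted p = 1.59e-08). The groups did not overlap for either, and the directions were opposite. The GABA-A subunits Gabra2 and Gabrb1 were at 22.2 ± 5.28 and 11.6 ± 2.49 CPM in MB and 3.31 ± 2.54 and 1.16 ± 1.24 CPM in FB (adjusted p = 8.46e-06 and 2.31e-05), and the GABA-B subunit Gabbr1 was at 25.8 ± 5.04 CPM in MB and 84.2 ± 7.57 CPM in FB (log2 difference -1.71, SE 0.13, adjusted p = 6.63e-09). Of 39 potassium channel genes 13 were higher and 6 lower. The calcium-activated Kcnn2 was at 41.4 ± 11.4 and 4.78 ± 1.12 CPM (log2 difference 3.10, SE 0.22, adjusted p = 2.30e-09), Kcnc4 at 41.4 ± 7.7 and 4.27 ± 1.89 CPM (log2 difference 3.26, SE 0.25, adjusted p = 6.88e-09), and Kcna2 at 10.7 ± 3.58 and 47.4 ± 8.52 CPM (log2 difference -2.16, SE 0.21, adjusted p = 1.72e-07).

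Signalling genes showed no single direction per pathway, with 11 of 40 Wnt genes higher and 9 lower, 2 of 13 hedgehog genes higher and 2 lower, 7 of 36 BMP and TGF-beta genes higher and 7 lower, and 12 of 40 FGF and EGF genes higher and 6 lower. The even Wnt split depended on the FB libraries used: without FB3, FB4 and FB5 13 Wnt genes were higher and 3 lower. Without FB1 and FB2 3 BMP and TGF-beta genes were lower, and the 2 higher hedgehog calls fell to 1 without MB3. In the Wnt pathway, Wls, which carries Wnt ligands to the cell surface, gave 368, 344, 340.5, 320.3 and 371 CPM in MB1 to MB5 and 93.6, 98.4, 114, 115 and 109 CPM in FB1 to FB5. Wls differed by 1.72 on the log2 scale (SE 0.07, adjusted p = 7.24e-13). The receptor Fzd9 gave 62, 61, 63.5, 130.4 and 65.2 CPM in MB1 to MB5 and 13.4, 15.3, 21.8, 11.5 and 9.96 CPM in FB1 to FB5 (log2 difference 2.40, SE 0.23, adjusted p = 1.22e-07), with MB4 far above the other MB libraries and all of them above FB. The target and receptor Lgr5 was at 25.3 ± 7.93 CPM in MB and 5.04 ± 2.71 CPM in FB (log2 difference 2.31, SE 0.34, adjusted p = 3.07e-05), and the feedback ligase Rnf43 at 13.3 ± 6.43 and 1.5 ± 1.51 CPM (log2 difference 3.12, SE 0.59, adjusted p = 0.000401). The ligand Wnt7a was lower, at 18.1 ± 5.08 and 35 ± 6.37 CPM (log2 difference -0.96, SE 0.19, adjusted p = 0.000597). The hedgehog ligand Dhh gave 48.3, 46.8, 42.7, 44.8 and 49.4 CPM in MB1 to MB5 and 173, 179, 175, 148 and 164 CPM in FB1 to FB5 (log2 difference -1.85, SE 0.08, adjusted p = 1.57e-12), and the co-receptor Cdon gave 1.01, 0.557, 5.98, 3.15 and 0 CPM in MB1 to MB5 and 21.1, 19.2, 20.9, 22.3 and 12.7 CPM in FB1 to FB5 (log2 difference -3.13, SE 0.54, adjusted p = 0.000168), both without overlap.

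Among growth factor response genes the factor Etv5 was at 690.3 ± 82.4 CPM in MB and 418 ± 20.7 CPM in FB (log2 difference 0.72, SE 0.07, adjusted p = 1.44e-07) and the feedback phosphatase Dusp6 at 738 ± 25.5 and 538 ± 25.7 CPM (log2 difference 0.46, SE 0.05, adjusted p = 5.46e-07). The feedback inhibitor Spry2 (235 ± 48.1 and 335 ± 74.2 CPM, log2 difference -0.51, SE 0.14, adjusted p = 0.00706) and the ligand Hbegf (111 ± 10.6 and 200.5 ± 15.3 CPM, log2 difference -0.85, SE 0.08, adjusted p = 8.46e-08) were lower. The BMP ligand Bmp3 was at 11.3 ± 3.84 and 1.69 ± 0.933 CPM (log2 difference 2.74, SE 0.43, adjusted p = 6.17e-05). Retinoid genes split by enzyme: Aldh1a1 gave 100.3, 86.8, 69.7, 70.7 and 101 CPM in MB1 to MB5 and 2.71, 0.789, 6.87, 3.72 and 8.24 CPM in FB1 to FB5 (log2 difference 4.23, SE 0.31, adjusted p = 2.70e-09), and Aldh1a3 gave 18.6, 9.75, 14.9, 12.9 and 10.8 CPM in MB1 to MB5 and 60.8, 53.5, 68.2, 53.2 and 71.5 CPM in FB1 to FB5. Aldh1a3 differed by -2.20 on the log2 scale (SE 0.17, adjusted p = 5.68e-09). Both make retinoic acid from retinal, and the groups were separate in opposite directions. The binding protein Crabp1 was lower (0.398 ± 0.333 CPM in MB and 4.57 ± 1.1 CPM in FB, adjusted p = 0.000165).

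Insulin-like growth factor binding proteins and imprinted growth genes differed in both directions, with 10 of 33 tested members of their list higher (5 without FB3, FB4 and FB5) and 10 lower. Igfbp4 gave 444, 409, 472, 413 and 505 CPM in MB1 to MB5 and 52.5, 57.2, 45.9, 37.2 and 44.5 CPM in FB1 to FB5. Igfbp4 differed by 3.24 on the log2 scale (SE 0.10, adjusted p = 9.22e-15). Igfbp5 was at 43.1 ± 4.35 CPM in MB and 11.2 ± 2.64 CPM in FB (log2 difference 1.94, SE 0.17, adjusted p = 4.76e-08), and Igfbp2 was 1.28-fold higher (adjusted p = 1.19e-06). The paternally expressed genes Mest (548 ± 17.2 and 1221 ± 67.3 CPM, log2 difference -1.16, SE 0.05, adjusted p = 7.24e-13), Nnat (239 ± 13.4 and 556 ± 21.1 CPM, log2 difference -1.22, SE 0.06, adjusted p = 2.06e-12) and Peg12 (79.5 ± 3.85 and 248 ± 11.3 CPM, log2 difference -1.64, SE 0.07, adjusted p = 6.06e-13) were lower. Grb10, an adaptor that damps insulin signalling, was at 0.984 ± 0.384 and 7.02 ± 3.65 CPM (log2 difference -2.84, SE 0.47, adjusted p = 0.000122).

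Matrix genes were higher for 23 of 59 tested members and lower for 14 (8 without FB3, FB4 and FB5). The lectican proteoglycans divided: Ncan gave 477, 329.7, 475, 332 and 529.6 CPM in MB1 to MB5 and 879, 1217, 1132, 1354 and 1254 CPM in FB1 to FB5 (log2 difference -1.44, SE 0.12, adjusted p = 2.45e-08), Vcan gave 73.2, 70.3, 89.5, 67.2 and 77.6 CPM in MB1 to MB5 and 24.2, 19.1, 20.5, 22.1 and 27.9 CPM in FB1 to FB5 (log2 difference 1.73, SE 0.13, adjusted p = 2.98e-09), and Bcan was at 678 ± 76.9 CPM in MB and 418 ± 23.8 CPM in FB (log2 difference 0.70, SE 0.07, adjusted p = 2.15e-07). Ncan was the single one of these 3 that was lower in MB. Fibronectin, Fn1, was at 93.6 ± 13.7 and 29 ± 6.15 CPM (log2 difference 1.69, SE 0.14, adjusted p = 1.78e-08). Of the basement membrane collagens, Col4a1 was at 17.6 ± 1.91 and 7.95 ± 1.9 CPM (log2 difference 1.15, SE 0.22, adjusted p = 0.000477) and Col18a1 at 41.1 ± 7.88 and 105 ± 10.1 CPM (log2 difference -1.35, SE 0.12, adjusted p = 5.13e-08). The laminin-binding integrin chain Itga7 was at 47.6 ± 6.2 and 168 ± 19.9 CPM (log2 difference -1.82, SE 0.10, adjusted p = 6.84e-11).

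The remaining genes of the 15 largest rises and 15 largest falls were of mixed function. The rises included Pygm, muscle glycogen phosphorylase, at 105, 89.3, 81.5, 107 and 118 CPM in MB1 to MB5 and 6.47, 7.76, 7.09, 8.76 and 7.87 CPM in FB1 to FB5 (log2 difference 3.71, SE 0.14, adjusted p = 1.04e-13), Calca, the gene of calcitonin and its related peptide, at 14.1 ± 3.18 CPM in MB and 0.859 ± 0.739 CPM in FB (log2 difference 4.05, SE 0.49, adjusted p = 2.54e-06), and Hsd11b1, which regenerates active glucocorticoid, at 16.7 ± 2.28 and 1.13 ± 0.787 CPM (log2 difference 3.86, SE 0.38, adjusted p = 1.92e-07). Mgarp, Itih3, Pdlim3, Crispld2, Fndc1, Serpinb1a and Palmd were 30.3, 22.6, 15.8, 14.9, 12.6, 11.6 and 11.5-fold higher, with adjusted p from 2.29e-11 (Fndc1) to 0.000207 (Crispld2). The falls included Thbd, thrombomodulin, at 1.29, 0.279, 0, 0.788 and 0 CPM in MB1 to MB5 and 31.4, 35.5, 32.8, 31.5 and 49.3 CPM in FB1 to FB5 (log2 difference -6.30, SE 0.44, adjusted p = 1.44e-09), and Rgs16, a regulator of G protein signalling, at 3.6, 5.57, 3.28, 5.83 and 2.74 CPM in MB1 to MB5 and 57.9, 58.3, 44.7, 47.8 and 43.7 CPM in FB1 to FB5. Rgs16 differed by -3.59 on the log2 scale (SE 0.21, adjusted p = 1.12e-10). Fndc3c1 was at 20.6 ± 2.93 CPM in MB and 175 ± 15.5 CPM in FB (log2 difference -3.09, SE 0.11, adjusted p = 3.61e-14). Nptx2, a synaptic pentraxin, Fam110c, the circadian repressor Nfil3, Loxl1, S1pr3 and Slc6a15 were 24.5, 21.8, 15.7, 10.4, 10.3 and 9.36-fold lower. By the rule that chose them, none of these groups overlapped.

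**Figure D5:**
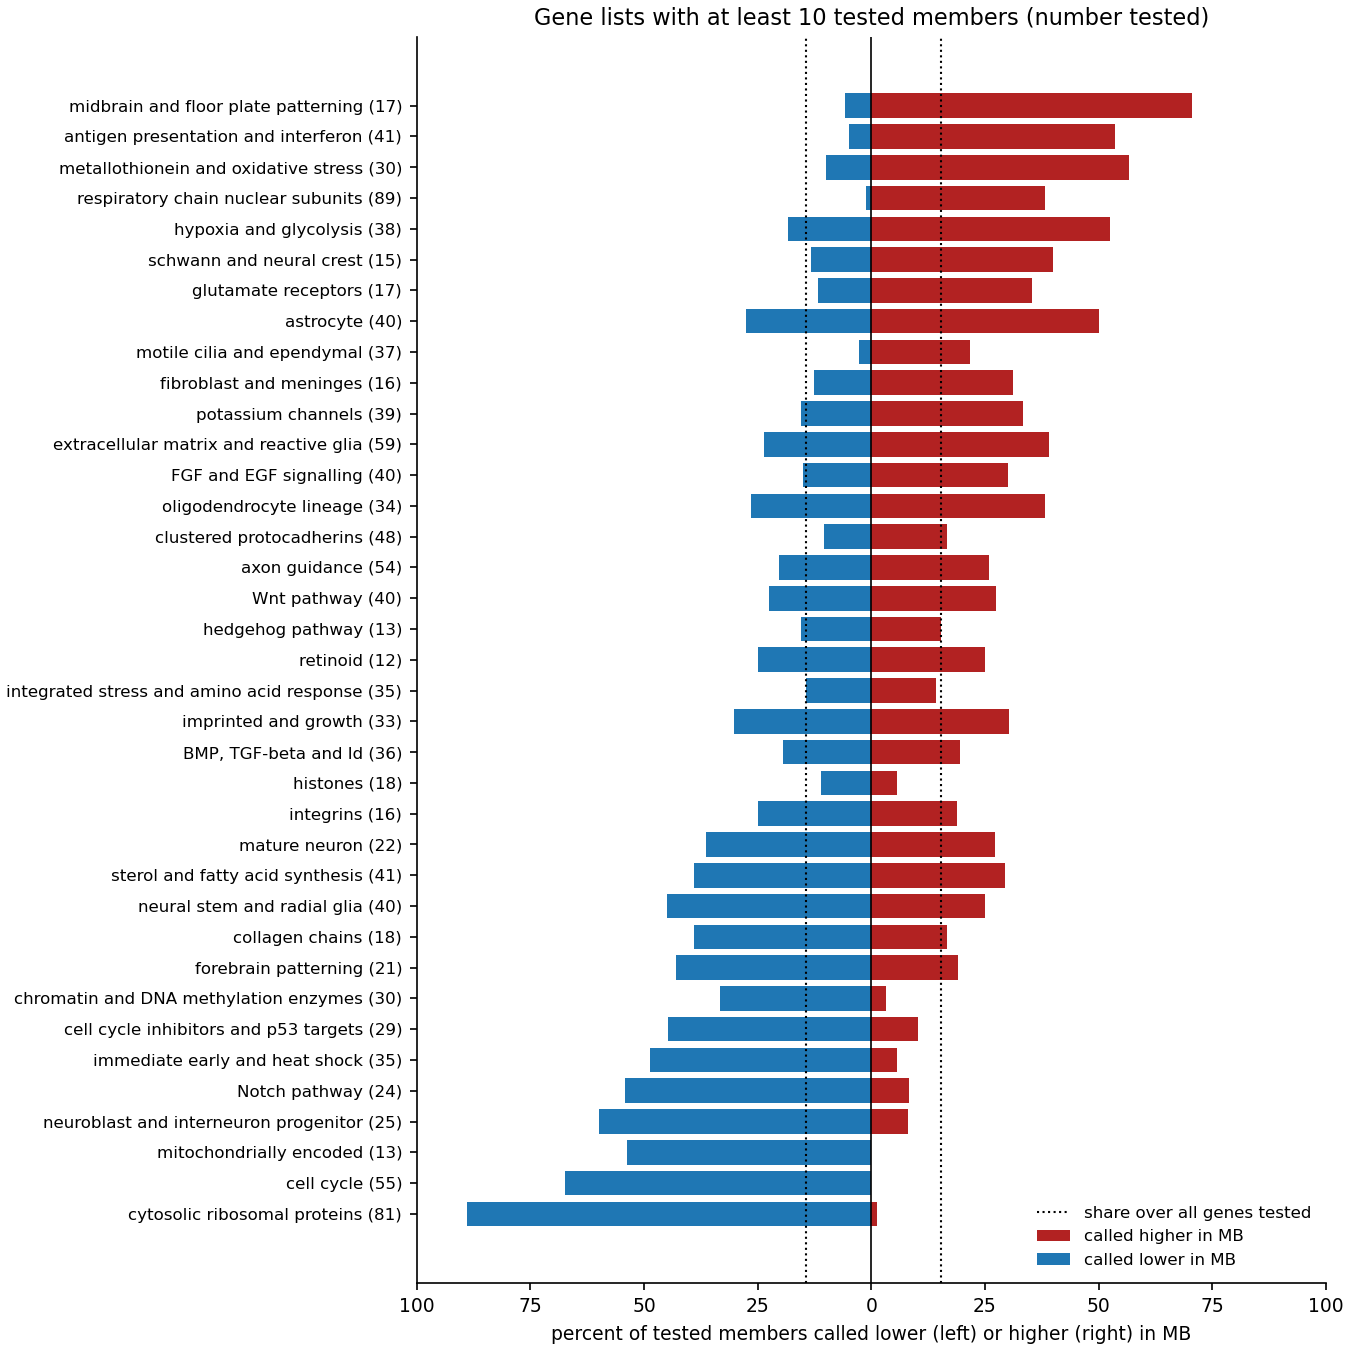
For lists with at least 10 tested members, bars give the percent of tested members that were called higher (red, to the right) or lower (blue, to the left) in MB, with the number tested in brackets, and dotted lines give 15.3% and 14.3%, the shares over all genes tested. Of the lists drawn, ribosomal protein and cell cycle genes reach furthest to the left, and midbrain patterning, metallothionein and oxidative stress and interferon genes furthest to the right.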

How the data were processed

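Polyadenylated RNA of 10 cultured sphere libraries was used. Per the labels' protocols, 1 ng of RNA was made into cDNA by Smart-seq2 with 15 cycles and into libraries with Tn5 and 11 cycles, without molecular identifiers or strand, so intervals cover counting error only and overlapping or antisense genes cannot be separated. The authors deposited whole-number counts per gene, each row with an Ensembl identifier and a symbol per the file headers. Per the submitters' processing notes, the tools STAR 2.3, Salmon 1.6.0 and DESeq2 1.34.0 took part, with mm10 and GRCm39 as builds, in roles that are not stated, so the counts may be Salmon estimates made whole. The counting step and its annotation were not given in the sources used here. No columns were left without a sample.

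The counts were tested with edgeR 4.0.16 in R 4.3.3 by its quasi-likelihood test (TMM scaling, filterByExpr, group alone as the term, all 10 libraries), with Benjamini-Hochberg adjustment over 12886 genes and a threshold of 0.05. CPM used TMM-scaled library sizes, and values after ± are SD. The library totals above set the precision: on simulated counts with 200 changed genes among 12886 the test recovered 37.3% of genes changed 1.5-fold, 73.1% at 2-fold and 95.5% at 4-fold, with 8 false calls among 145. Alternatives were DESeq2 1.42.0, limma 3.58.1 with voom, other scalings and filters, a replicate block and each library left out. Leaving out FB1 and FB2, or FB3 to FB5, was added after seeing the data. A chi-square test found every pair of libraries of a group to differ (7.11 to 19.0 per degree of freedom), so none was treated as a library deposited more than once. That does not show that they are separate cultures.

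Members and 46 gene lists were chosen with earlier results of these data known, and lists are described by counts and medians, with no test. Named genes were Sox9 and the Nfi factors, all tested patterning list members, the 15 largest non-overlapping rises and falls with a mean of at least 10 CPM in the higher group, the 8 smallest p in each direction, and from each list up to 8 called members per direction by p and up to 3 not called by level. Not every gene that these rules select is described. Cell type markers and the genes said to be chosen later are named outside them. Promoter windows are those of RefSeq. Gene coordinates of the files' build were not used here.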

Additional observations from a re-analysis of the deposited data

Results flagged for a closer look

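Over the genes given with values, 449 groups of 5 libraries were examined for a library that stands apart from the other 4, and 25 had one. Chance flags about 1 in 20 groups. In each case the gap from that library to the nearest other was over 0.71 of the group's range. None of these libraries brought its group into the range of the other where the text says that the groups did not overlap.

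In FB1, Mobp was at 9.03 CPM (the other FB libraries at 4.36 to 5.66), Sox11 at 194 (229 to 240), Lpcat3 at 129 (92.7 to 103), Ifit3 at 1.96 (0 to 0.545) and Dusp6 at 582 CPM (518 to 536). In FB2, Odad2 was at 2.76 CPM (0 to 0.451). In FB3, Irx2 was at 1.31 CPM (0 to 0.246) and Cox8b at 4.69 CPM (2.37 to 3). In FB4, Loxl1 was at 20.1 CPM (10.8 to 12.8) and Gabrb1 at 3.36 CPM (0.369 to 0.789). In FB5, Thbd was at 49.3 CPM (31.5 to 35.5).

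In MB1, Pax6 was at 15.1 CPM (the other MB libraries at 12.3 to 13.1) and Serpinb1a at 16.7 CPM (13.6 to 14.5). In MB2, Fth1 was at 2680 CPM (2430 to 2490), Cdk1 at 125 (145 to 153), Dnmt1 at 126 (167 to 181) and Msx1 at 5.57 CPM (3.17 to 3.78). In MB3, Nfic was at 18.4 CPM (21.8 to 22.9), Slc6a15 at 4.69 (0.521 to 1.42), Tmem212 at 1.29 (0 to 0.144), Fos at 404 (466 to 479) and Bcl11a at 7.15 CPM (1.73 to 2.35). In MB4, Dbx2 was at 312 CPM (336 to 346), Dcc at 5.05 (1.41 to 2.09) and Fzd9 at 130 CPM (61.0 to 65.2). The gap was widest for Fzd9, at 0.940 of the range.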

How the results depend on the processing

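Under 19 alternatives, 192 of the 196 called genes given with values kept their call in every setting that tested them, and none of the 196 reversed. The exceptions were Pax6, Helt, Slc1a3 and Dcn. Some genes that were not called gained a call in other settings: Bcl11a in 8, Dcx in 7, Rsph1 in 6, Tubb3 in 5 and Zic5 in 3. Zic1, Zfhx3, Msx1 and Egr1 did so in 2 each and Olig1 in 1. The count of called genes ranged from 3422 (without FB4) to 3632 (without FB2) with 1 library left out, against 3818, and from 3565 to 4111 under other tests, scalings and filters. Requiring at least 10 counts in all libraries gave 696 genes past 2-fold, 239 of them lower in MB, because that filter removes genes near 0 in 1 group. It left 5 forebrain factors lower, 4 midbrain factors higher and 5 oligodendrocyte lineage genes lower. Without FB3, FB4 and FB5, 2440 genes were called, 1115 of them lower, with 3 fewer libraries. Of genes not called, the log2 difference changed sign with 1 library left out for Sox2 (-0.185 to 0.096, positive without MB2, MB5 or FB5), Nfia (-0.021 to 0.130, negative without MB5), Barhl2 (-0.451 to 0.081, positive without MB2) and Meis3 (-0.098 to 0.075, negative without MB3, MB4, MB5 or FB3).

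With the replicate number as a block, 3650 genes were called, 3516 of them shared with the fit without it, and Pax6 and Helt lost their calls. Deviations from the group mean of same-numbered libraries correlated at -0.011 to 0.044, and 2 of 10 libraries matched their own number best. These values cannot show whether equal numbers mark the same source, because a small shared effect could be hidden in the spread between libraries. A gene changed 1.5-fold was recovered in 37.3% of simulated cases, so a gene not called may still differ at this depth. The simulation changed 200 genes, far fewer than the 3818 called here. Its cut-off on unadjusted p was therefore stricter, and its recovery rates may be too low for these data.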

Other observations

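Glucose handling and hypoxia response genes were higher in MB for 20 of 38 tested members and lower for 7, with a median log2 difference of 0.40. The hypoxia-inducible factor chains Epas1 and Hif1a were both higher: Epas1 gave 77.7, 68, 91.5, 69.7 and 108 CPM in MB1 to MB5 and 12.5, 25.8, 13.9, 19.1 and 23.9 CPM in FB1 to FB5 (log2 difference 2.12, SE 0.18, adjusted p = 3.17e-08), and Hif1a was at 491 ± 20.2 CPM in MB and 301 ± 18.1 CPM in FB (log2 difference 0.70, SE 0.06, adjusted p = 8.55e-09). The glycolytic enzyme Gpi1 was at 927 ± 40.9 and 512 ± 29.5 CPM (log2 difference 0.86, SE 0.05, adjusted p = 1.68e-10). Other enzymes of the same pathway were lower, with Pfkp, a phosphofructokinase, at 21, 31.6, 25.3, 27.9 and 28.8 CPM in MB1 to MB5 and 151, 107, 87.9, 119.5 and 111 CPM in FB1 to FB5 (log2 difference -2.10, SE 0.14, adjusted p = 5.81e-10) and the hexokinase Hk2 at 6.08 ± 0.796 and 14.8 ± 3.3 CPM (log2 difference -1.29, SE 0.24, adjusted p = 0.000356).

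Axon guidance genes were higher for 14 of 54 tested members and lower for 11. These counts were 8 and 5 without FB3, FB4 and FB5, 11 and 6 without FB1 and FB2, and 7 were lower without MB2. Draxin, a secreted guidance protein, was at 27.9 ± 4.24 CPM in MB and 8.34 ± 1.79 CPM in FB (log2 difference 1.75, SE 0.20, adjusted p = 1.24e-06), while the netrin receptors Unc5b (1.75 ± 0.809 and 7.37 ± 1.77 CPM, log2 difference -2.08, SE 0.41, adjusted p = 0.000661) and Dcc (2.36 ± 1.52 and 8.94 ± 4.76 CPM, log2 difference -1.93, SE 0.45, adjusted p = 0.0029) were lower. Their ligand Ntn1 was higher, as given above. Chromatin enzymes were lower for 10 of 30 tested members and higher for 1. The maintenance methyltransferase Dnmt1 was at 164 ± 22.3 CPM in MB and 223 ± 25.9 CPM in FB (log2 difference -0.44, SE 0.10, adjusted p = 0.00144) and its partner Uhrf1 at 115 ± 5.93 and 163 ± 10.5 CPM (log2 difference -0.50, SE 0.07, adjusted p = 2.15e-05). The count of lower enzymes was 6 without MB2, 5 without FB2, 6 without FB3, 5 without FB1 and FB2 and 4 without FB3, FB4 and FB5.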
